A study of Mus musculus with 18 samples.

Results

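Ccl3, Ccl4 and Ccl5 are the 3 CC chemokine genes that T cells are best known to secrete, and they were taken by name, together with their relation to Cd8a, the gene of the CD8 alpha chain. They are 3 of the 37236 genes in the table of normalized read counts, and all 3 were among the 11992 genes that were tested, those averaging 10 or more normalized counts per sample. In GRCm38 (mm10) all 3 lie on chromosome 11, with Ccl5 at chr11:83525778-83530518 on the minus strand, Ccl3 at chr11:83647844-83649355 on the minus strand and Ccl4 at chr11:83662584-83664683 on the plus strand.

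Chemokines are small secreted proteins that guide the migration of leukocytes through G protein-coupled receptors. Ccl3 and Ccl4 (MIP-1 alpha and MIP-1 beta) are early products of T cells and macrophages after activation and attract other leukocytes. Ccl5 (RANTES) is made late after T cell activation under factors such as Klf13, and is stored and released by memory and effector CD8+ T cells. Macrophages, NK cells and platelets can also hold some of these products, so the source of a chemokine transcript in a tumor sample depends on the cells in it.

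The samples were tumor-infiltrating lymphocytes of C57BL/6 mice that had received 500000 B16-OVA melanoma cells, a mouse melanoma line that carries ovalbumin, under the skin. The mice were wild type or Nr2f6-/-, a germline deficiency in which every host cell, not only T cells, lacks the nuclear orphan receptor Nr2f6. All received 0.5 mg of antibody into the peritoneum repeatedly from day 3, either anti-PD-L1 (aPDL1 in the labels, clone 10F.9G2), which blocks an inhibitory ligand of T cells, or the isotype control IgG2b (clone LTF-2). The tumors were taken on day 14, T cells were enriched with CD4 and CD8 beads, pooled and sorted for CD3, and RNA was sequenced from the 3′ end. The 18 samples comprised 3 wild type IgG2b, 3 Nr2f6-/- IgG2b, 6 wild type anti-PD-L1 and 6 Nr2f6-/- anti-PD-L1 samples. By library number the samples form 2 sets: set 1 held replicates 1 to 3 of every group and set 2 the other anti-PD-L1 samples, so antibody effects could be compared within set 1 alone. The labels do not state that each sample was a separate mouse, so the p-values measure the spread between these samples.

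The coding sequences of Ccl3 and Ccl5 are shown because they carry the adjacent cysteine codons that give the CC family its name, and because reads of near-identical genes could be shared. They were taken from the GENCODE M21 transcripts of GRCm38, 5′ to 3′, with the paired cysteine codons in capitals.
Ccl3: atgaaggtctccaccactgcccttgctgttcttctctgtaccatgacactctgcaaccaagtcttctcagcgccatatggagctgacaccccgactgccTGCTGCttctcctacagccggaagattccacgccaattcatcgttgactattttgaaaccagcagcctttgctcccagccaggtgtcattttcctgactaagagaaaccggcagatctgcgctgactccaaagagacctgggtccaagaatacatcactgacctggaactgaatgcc
Ccl5: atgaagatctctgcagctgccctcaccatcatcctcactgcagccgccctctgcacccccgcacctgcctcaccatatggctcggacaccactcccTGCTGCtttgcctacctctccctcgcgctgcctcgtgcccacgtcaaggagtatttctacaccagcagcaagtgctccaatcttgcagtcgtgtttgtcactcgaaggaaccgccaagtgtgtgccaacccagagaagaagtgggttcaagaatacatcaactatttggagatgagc
The Ccl3 coding sequence has 276 bases and the Ccl5 coding sequence 273 bases, each from 3 exons. The cysteine pair lies at codons 34 and 35 in Ccl3 and at codons 33 and 34 in Ccl5. In a pairwise alignment 62.8% of the aligned columns were identical between them, and the longest identical run was 13 bases. The RefSeq span of Ccl4 begins at position 83648624, inside Ccl3 on the opposite strand. The annotation and strand setting of the authors' counting were not given in the sources used here. A read in that overlap could therefore have been assigned to either gene or to neither. The overlap lies in the 5′ part of both genes, while RNA was sequenced from the 3′ end.

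The samples held between 12473391 and 18609482 reads on genes. The least abundant value of a member was 2414 reads, for Ccl4, and Ccl5 took between 0.166% and 0.978% of all reads of a sample, so counting error was small beside the spread between samples. Nr2f6 had 0 reads in all 9 Nr2f6-/- samples and between 20.2 and 200.9 normalized counts in the 9 wild type samples. The 6 T cell markers summed to between 31950 and 56450 normalized counts per sample, so T cell transcripts were present throughout. The 14 macrophage and monocyte markers, none at 0 throughout a group, summed to between 16130 and 20830 normalized counts in the wild type IgG2b samples, 9617 and 13600 in the Nr2f6-/- IgG2b samples, 1759 and 6954 in the wild type anti-PD-L1 samples and 1056 and 2715 in the Nr2f6-/- anti-PD-L1 samples. The 3 NK cell markers summed to at most 208.7 and the 4 B cell markers to at most 192.4 normalized counts in any sample, with Ncr1 at 0 in both IgG2b groups and Cd79a at 0 in all groups. The 4 platelet markers summed to between 2300 and 2611 normalized counts in the wild type IgG2b samples and to at most 703 in any other sample. Of these, Gp9 was at 0 in all groups, Itga2b in both IgG2b groups and Ppbp in all groups but wild type IgG2b. The sum in the wild type IgG2b samples therefore came from Pf4 and Ppbp alone. The 5 melanoma markers summed to between 2351 and 4481 normalized counts in the wild type IgG2b samples, 1144 and 2200 in the Nr2f6-/- IgG2b samples, 2011 and 7107 in the wild type anti-PD-L1 samples and 736.2 and 4106 in the Nr2f6-/- anti-PD-L1 samples, where Tyr was at 0 throughout.

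Ccl5 was high in every Nr2f6-/- anti-PD-L1 sample and in a single sample outside that group. The wild type IgG2b samples had 36841, 50158 and 34623 normalized counts of Ccl5, and the Nr2f6-/- IgG2b samples had 48717, 36092 and 58105. In the wild type anti-PD-L1 group the lowest Ccl5 value was 25409, the median 41763 and the highest 111441 normalized counts. In the Nr2f6-/- anti-PD-L1 group the lowest was 108648, the median 126870 and the highest 157300. The first 3 groups therefore shared 1 range, with the exception of replicate 3 of the wild type anti-PD-L1 group, which reached into the lower end of the Nr2f6-/- anti-PD-L1 values, while the next highest sample of its group had 45817.

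**Figure D1:**
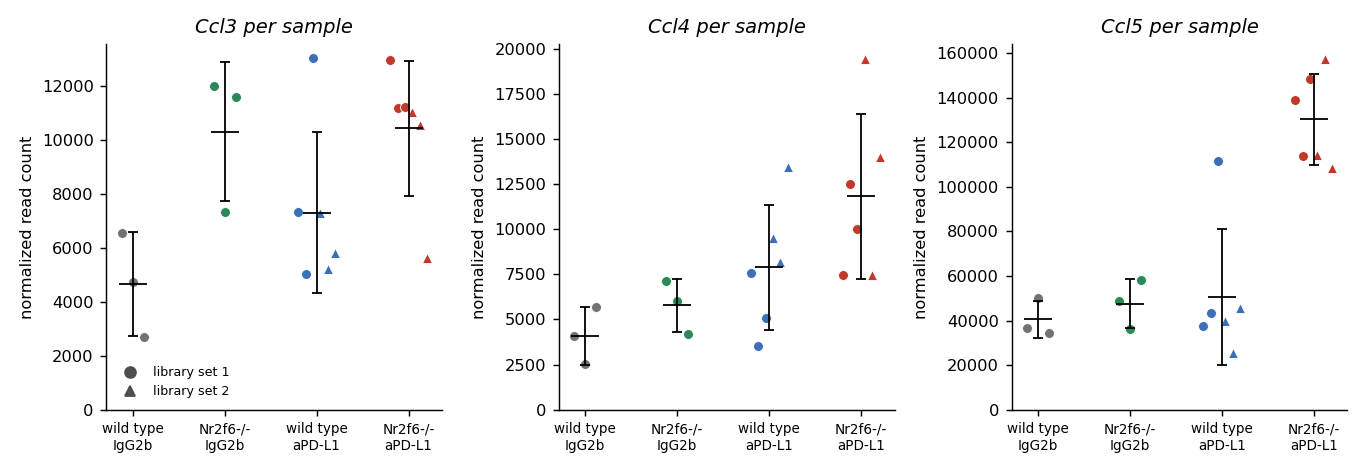
Normalized read counts (linear axes from 0) of Ccl3, Ccl4 and Ccl5 in each sample by group, with circles for library set 1, triangles for library set 2, and a bar with whiskers for the mean ± SD of the 3 or 6 samples. All 6 Nr2f6-/- anti-PD-L1 samples had at least 108648 normalized counts of Ccl5, and outside that group only wild type anti-PD-L1 replicate 3, with 111441, came near them.

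With anti-PD-L1, Ccl5 was 2.85-fold higher in Nr2f6-/- than in wild type samples, 130320 ± 20564 against 50655 ± 30616 normalized counts (mean ± SD, n = 6 each). The log2 difference was 1.51 ± 0.22 (SE) with an adjusted p of 0.000732 (limma), and Ccl5 ranked 3 by p-value of the 11992 genes. Of the members only Ccl5 was called in this comparison, against 0.175% of all genes. Of the 6 Nr2f6-/- samples, 5 lay above all 6 wild type samples, and the exact two-sided permutation test gave p = 0.00433. No member was above every wild type sample in all its Nr2f6-/- samples, a separation that 0.392% of all genes showed. Within library set 1 the difference was 1.23 and within set 2 it was 1.80 on the log2 scale, with no overlap in either set and an exact permutation p of 0.1, the smallest that 3 against 3 samples allow. Neither set alone gave a limma call (adjusted p = 0.115 in set 1 and 0.45 in set 2). Without wild type replicate 3 the difference was 1.77 with an adjusted p of 6.94e-07 (limma). The call was kept in all 18 fits that left out a single library, and lost with Cd8a as a covariate (1.02, adjusted p = 0.076, limma). The summed melanoma markers were lower in Nr2f6-/- samples here, with medians of 1254 against 3310 normalized counts, while none of the 4 tested was called. The part of tumor cell content in the Ccl5 difference was not tested.

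Within Nr2f6-/- samples, Ccl5 was 2.76-fold higher with anti-PD-L1 than with IgG2b (log2 difference 1.46 ± 0.27, adjusted p = 0.0109, limma). Ccl5 was the only member called there, against 0.325% of all genes. All 6 anti-PD-L1 samples lay above the 3 IgG2b samples, which had 47638 ± 11046 normalized counts (mean ± SD, n = 3), and the exact permutation p of 0.0119 was the smallest possible. The same 6-of-6 order held for Ccl4 but not for Ccl3, and 1.97% of all genes showed it. The Ccl5 call was lost without Nr2f6-/- IgG2b replicate 1 (adjusted p = 0.0653, limma) or replicate 2 (1.28 on the log2 scale, adjusted p = 0.117), and within library set 1 alone (1.51, adjusted p = 0.114). Each of these differences kept its direction.

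In wild type samples, by contrast, no change of Ccl5 with anti-PD-L1 could be shown: the log2 difference was 0.18 with a 95% confidence interval from -0.38 to 0.73 (adjusted p = 0.940, limma). No member was called in that comparison, against 0.242% of all genes. Between genotypes under IgG2b the Ccl5 difference was 0.23, with an interval from -0.42 to 0.87 (adjusted p = 0.992, limma). The Nr2f6-/- IgG2b and wild type anti-PD-L1 groups, which each had 1 of the 2 conditions, differed by 0.05 in Ccl5 (interval -0.51 to 0.61), and no member was called between them, against 0.459% of all genes. By group mean on the log2 scale, Ccl5 was ordered from wild type IgG2b over wild type anti-PD-L1 and Nr2f6-/- IgG2b to Nr2f6-/- anti-PD-L1, and only the last step exceeded the spread between samples.

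The effect of genotype on Ccl5 was 1.29 ± 0.39 larger, on the log2 scale, with anti-PD-L1 than with IgG2b. This interaction had an unadjusted p of 0.00232 and rank 29 of 11992 genes, but an adjusted p of 0.959 (limma). The exact permutation test of this single value, over 18480 assignments of genotype within each antibody, gave p = 0.025. It assumes no genotype effect under either antibody, so it does not test the interaction apart from the genotype effect with anti-PD-L1. Limma called 0 of the 11992 genes for the interaction (percent called 0; 596 had an unadjusted p under 0.05), edgeR called 0 and DESeq2 called 76, without Ccl5 (adjusted p = 0.753, DESeq2). The interactions of Ccl3 (-0.65, interval -1.46 to 0.16) and Ccl4 (0.08, interval -0.85 to 1.01) did not pass (adjusted p = 0.974 and 0.995, limma).

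Ccl4 differed most between the group with both conditions and the group with neither. The wild type IgG2b samples had 4059, 2516 and 5716 normalized counts of Ccl4, and the Nr2f6-/- IgG2b samples had 7108, 6044 and 4201. In the wild type anti-PD-L1 group the lowest value was 3556, the median 7864 and the highest 13427. In the Nr2f6-/- anti-PD-L1 group the lowest was 7469, the median 11273 and the highest 19414. The Nr2f6-/- anti-PD-L1 range cleared both IgG2b groups and overlapped the wild type anti-PD-L1 range in all but 2 of its samples.

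Against wild type IgG2b, Ccl4 was 2.87-fold higher in Nr2f6-/- anti-PD-L1 samples (log2 difference 1.52 ± 0.32, adjusted p = 0.0184, limma), with 11819 ± 4560 (n = 6) against 4097 ± 1600 normalized counts (mean ± SD, n = 3). All 3 members were called higher in this comparison, where 0.617% of all genes were called in either direction. Ccl5 rose 3.23-fold (1.69 ± 0.27, adjusted p = 0.00186, limma) and Ccl3 2.31-fold (1.21 ± 0.28, adjusted p = 0.0343, limma). All 6 samples lay above the 3 wild type IgG2b samples for Ccl4 and Ccl5 (exact permutation p = 0.0119, the smallest possible), a separation seen in 2.17% of all genes, and 5 of 6 did for Ccl3 (exact permutation p = 0.0238). With Cd8a as a covariate the calls were lost for Ccl5 (1.08, adjusted p = 0.231, limma) and Ccl3 (0.84, adjusted p = 0.480, limma). The Ccl4 call was lost without wild type IgG2b replicate 1 or 2, and with library set as a covariate (1.18, adjusted p = 0.0634, limma), while the range over all leave-one-out fits was 1.21 to 1.80.

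No single condition gave a call for Ccl4. With anti-PD-L1 it was higher by 0.90 on the log2 scale in wild type samples (interval 0.24 to 1.55, adjusted p = 0.455, limma) and by 0.98 in Nr2f6-/- samples (interval 0.32 to 1.63, adjusted p = 0.253, limma). The genotype difference was 0.62 with anti-PD-L1 (interval 0.09 to 1.16, adjusted p = 0.420, limma) and 0.54 with IgG2b (interval -0.22 to 1.30, adjusted p = 0.989, limma). Within wild type anti-PD-L1 samples Ccl4 was 5391 ± 2021 normalized counts in library set 1 and 10379 ± 2727 in set 2 (mean ± SD, n = 3 each), with no overlap. Within Nr2f6-/- anti-PD-L1 samples it was 10007 ± 2522 in set 1 and 13632 ± 5982 in set 2 (mean ± SD, n = 3 each), with overlap and with the lowest value in set 2. With library set as a covariate, the antibody differences of Ccl4 were 0.56 in wild type (adjusted p = 0.752, limma) and 0.64 in Nr2f6-/- samples (adjusted p = 0.511, limma). In set 1 alone, anti-PD-L1 minus IgG2b was 0.41 in wild type and 0.79 in Nr2f6-/- samples (exact permutation p = 0.5 and 0.1, smallest possible 0.1).

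Ccl3 was highest, by group mean, in the 2 Nr2f6-/- groups. The wild type IgG2b samples had 6558, 4717 and 2694 normalized counts of Ccl3, and the Nr2f6-/- IgG2b samples had 11979, 7325 and 11594. In the wild type anti-PD-L1 group the lowest value was 5039, the median 6562 and the highest 13025. In the Nr2f6-/- anti-PD-L1 group the lowest was 5608, the median 11087 and the highest 12957. Each Nr2f6-/- group had 1 sample well below its others, at 7325 and 5608, and replicate 3 of the wild type anti-PD-L1 group stood above the rest of its group.

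Under IgG2b, Ccl3 was 2.30-fold higher in Nr2f6-/- than in wild type samples, 10299 ± 2583 against 4657 ± 1933 normalized counts (mean ± SD, n = 3 each), with no overlap, a separation that 6.1% of all genes showed (exact permutation p = 0.1, the smallest possible). The log2 difference of 1.20 ± 0.32 ranked 16 of 11992 by p-value but did not pass (adjusted p = 0.575, limma). Limma called 0 genes in this comparison (percent called 0; 641 had an unadjusted p under 0.05), edgeR called 0 and DESeq2 called 88, without Ccl3 (adjusted p = 0.0661, DESeq2). With anti-PD-L1 the genotype difference of Ccl3 was 0.55 (interval 0.08 to 1.02, adjusted p = 0.412, limma). It was 0.73 without wild type replicate 3 and 0.72 without Nr2f6-/- replicate 6.

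With anti-PD-L1, Ccl3 differed from IgG2b by 0.00 on the log2 scale in Nr2f6-/- samples (interval -0.57 to 0.58, adjusted p = 1, limma) and by 0.66 in wild type samples (interval 0.08 to 1.23, adjusted p = 0.588, limma). Its call against wild type IgG2b was the least firm of the 3 members. It was kept in 11 of the 18 fits that left out a single library, with values from 0.86 to 1.5, and lost without wild type IgG2b replicate 2 or 3 and without any of replicates 1 to 5 of the Nr2f6-/- anti-PD-L1 group. It was also lost in library set 1 alone (1.43, adjusted p = 0.0692, limma) and in edgeR (1.18, adjusted p = 0.110). The call was kept in DESeq2 (1.16, adjusted p = 0.00619) and with library set as a covariate (1.41, adjusted p = 0.0154, limma).

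**Figure D2:**
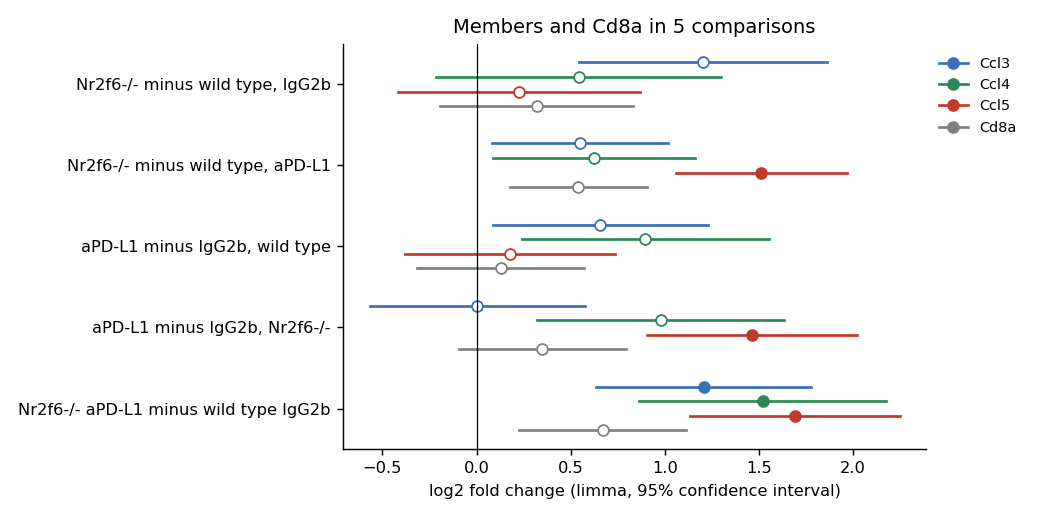
Log2 fold changes with 95% confidence intervals (limma) of Ccl3, Ccl4, Ccl5 and Cd8a in 5 comparisons, with filled points for an adjusted p under 0.05. Ccl5 was called in 3 comparisons, with 1.51, 1.46 and 1.69, and Ccl3 and Ccl4 only in the comparison of both conditions with neither, with 1.21 and 1.52.

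In bulk samples, more cells of a type and more RNA per cell cannot be told apart, so the members were set beside Cd8a, which marks CD8+ T cells. The wild type IgG2b samples had 8102, 8327 and 8108 normalized counts of Cd8a, and the Nr2f6-/- IgG2b samples had 8129, 12597 and 10395. In the wild type anti-PD-L1 group the lowest value was 5361, the median 9330 and the highest 13579, in replicate 3, the sample with high Ccl3 and Ccl5. In the Nr2f6-/- anti-PD-L1 group the lowest was 11329, the median 12528 and the highest 17119. Cd8a was therefore highest on average where Ccl5 was, with overlapping groups, and its genotype difference with anti-PD-L1 was 0.54 ± 0.18 on the log2 scale (adjusted p = 0.278, limma; exact permutation p = 0.0260), beside 1.51 for Ccl5.

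Relative to Cd8a, Ccl5 was separated between the genotypes with anti-PD-L1, which overlapped in Ccl5 itself. The log2 ratio of Ccl5 to Cd8a was between 3.20 and 3.46 in the 6 Nr2f6-/- anti-PD-L1 samples (mean 3.31 ± 0.088 SD) and between 1.83 and 3.04 in the 6 wild type anti-PD-L1 samples (mean 2.34 ± 0.44 SD). All 6 Nr2f6-/- values lay above all 6 wild type values, including replicate 3 with its ratio of 3.04, and the exact permutation p of 0.00217 was the smallest possible. Of the 11991 genes set against Cd8a, 0.0334% showed that separation upwards. The difference of 0.97 ± 0.28 fell just short of the threshold across all genes (adjusted p = 0.0550, limma), where 1.63% of genes were called and the median of all genes was -0.55, since Cd8a itself was higher. It was as large within library set 1 (0.94) and set 2 (1.0, a split added after the data were seen), and passed without wild type replicate 3 (1.11, adjusted p = 0.0129, limma).

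Against the 2 IgG2b groups the Ccl5 ratio was likewise higher in all 6 Nr2f6-/- anti-PD-L1 samples. The ratio was 2.19 ± 0.59 in the Nr2f6-/- IgG2b and 2.29 ± 0.26 in the wild type IgG2b samples (mean ± SD, n = 3 each). The differences of 1.11 and 1.02 each had an exact permutation p of 0.0119, the smallest possible, and did not pass across all genes (adjusted p = 0.197 and 0.0881, limma, where 0.208% and 2.59% of genes were called). Separations of that kind were seen in 0.409% and 0.15% of genes. With the second CD8 chain gene, Cd8b1, in place of Cd8a the genotype difference with anti-PD-L1 was 0.84 (adjusted p = 0.0377, limma), and with the mean of the CD3 chain genes Cd3d, Cd3e and Cd3g it was 1.32 (adjusted p = 0.0032, limma).

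**Figure D3:**
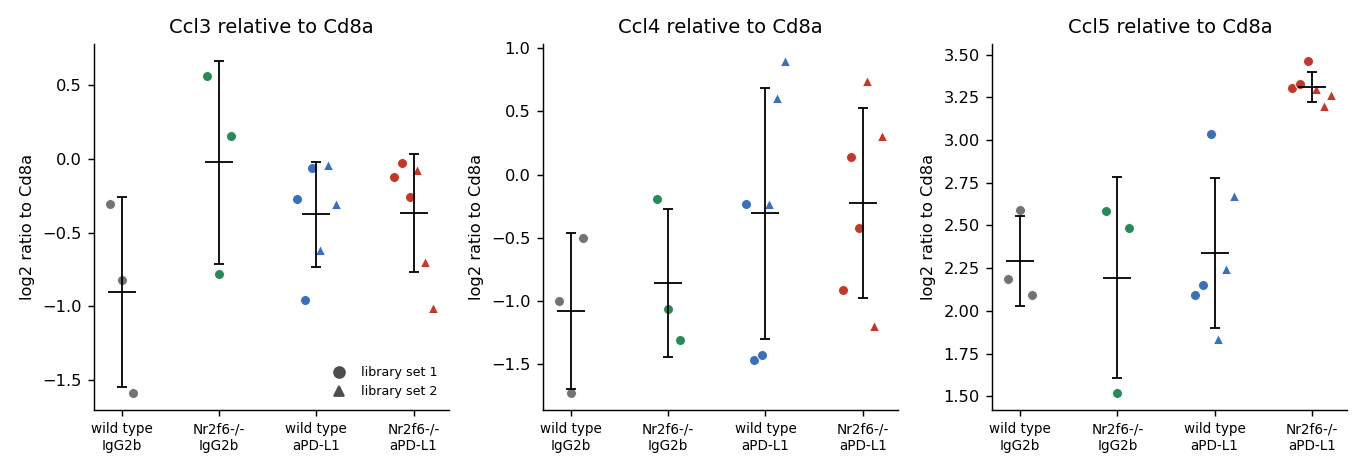
Log2 ratios of Ccl3, Ccl4 and Ccl5 to Cd8a in each sample by group, with circles for library set 1, triangles for set 2, and a bar with whiskers for the mean ± SD. The 6 Nr2f6-/- anti-PD-L1 samples lay between 3.20 and 3.46 for Ccl5, above every other sample, while the groups overlapped for Ccl3 and Ccl4.

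For the other 2 members no difference relative to Cd8a could be shown. With anti-PD-L1 the genotype difference of the Ccl3 ratio was 0.01 (interval -0.52 to 0.54, adjusted p = 0.986, limma) and that of the Ccl4 ratio was 0.08 (interval -0.62 to 0.78, adjusted p = 0.914, limma). Against wild type IgG2b the Nr2f6-/- anti-PD-L1 ratios were higher by 0.54 for Ccl3 (interval -0.11 to 1.18, adjusted p = 0.285, limma) and by 0.85 for Ccl4 (interval -0.01 to 1.71, adjusted p = 0.215, limma). Under IgG2b the genotype difference of the Ccl3 ratio was 0.88 (interval 0.14 to 1.63, adjusted p = 0.864, limma), and the groups overlapped. No ratio was called in the remaining comparisons, in which limma called 0% of genes between genotypes under IgG2b, 0.167% for anti-PD-L1 in wild type samples and 0.142% between Nr2f6-/- IgG2b and wild type anti-PD-L1.

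Across samples the 3 members also differed in how they varied with Cd8a once the group means were removed. For Ccl5 the deviations from the group means correlated with those of Cd8a with Pearson r = 0.65 (permutation p = 0.0409, adjusted p = 0.123 over 6 relations, n = 18) and Spearman rho = 0.42 (permutation p = 0.125, adjusted p = 0.187). Only 0.734% of 11991 genes had a higher r with Cd8a, and Cd8b1 had 0.81. Without the 2 samples farthest from the median of Cd8a, replicate 5 of each anti-PD-L1 group, r was 0.45 (permutation p = 0.243), and without wild type anti-PD-L1 replicate 3, an exclusion added after the data were seen, it was 0.46 (permutation p = 0.131), so the relation with Cd8a rested on few samples. With Cd8b1 in place of Cd8a, r was 0.84 (permutation p = 0.00113) and rho 0.69 (permutation p = 0.00376). With Cd8a it was 0.52 within library set 1 (permutation p = 0.272, n = 12) and 0.75 within set 2 (exact permutation p = 0.222, n = 6). A pooled r of the values themselves was not tested for Ccl5, because 7 samples lay at 108648 normalized counts or more and the other 11 at 58105 or less.

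Within the 6 Nr2f6-/- anti-PD-L1 samples alone, Ccl5 and Cd8a were correlated (r = 0.93, exact permutation p = 0.00972, rho = 0.94, exact permutation p = 0.0167), and within the 6 wild type anti-PD-L1 samples r was 0.79 (exact permutation p = 0.0722) and rho 0.60 (exact permutation p = 0.242). Within the same 6 Nr2f6-/- anti-PD-L1 samples Ccl4 and Cd8a had r = -0.83 (exact permutation p = 0.0319) and rho = -0.83 (exact permutation p = 0.0583), and within the wild type anti-PD-L1 samples r = -0.45 (exact permutation p = 0.365). For Ccl3 r was 0.38 (exact permutation p = 0.388) in the Nr2f6-/- and 0.74 (exact permutation p = 0.0889) in the wild type anti-PD-L1 samples. Over the deviations from group means of all samples the sign for Ccl4 was also negative, with r = -0.49 (permutation p = 0.0782, adjusted p = 0.156) and rho = -0.59 (permutation p = 0.0185, adjusted p = 0.111). Within library sets its r was -0.34 in set 1 and -0.36 in set 2 (permutation p = 0.351, and exact permutation p = 0.472). Without the 2 samples farthest from the Cd8a median it was -0.51 (permutation p = 0.0937). The Ccl4 values themselves, with the group means left in, had a positive r of 0.15 with Cd8a (permutation p = 0.553, n = 18). Over the deviations of all 18 samples, Ccl3 had r = 0.38 (permutation p = 0.162, adjusted p = 0.194) and rho 0.11 (permutation p = 0.680). None of the 6 relations passed after adjustment, and the p-values within single groups are unadjusted.

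**Figure D4:**
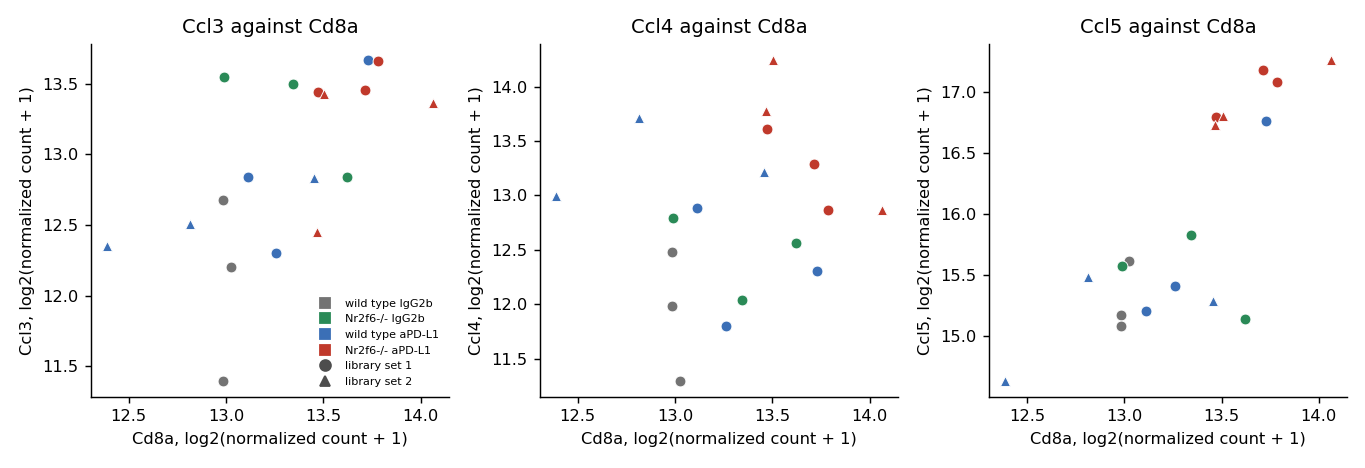
Log2(normalized count + 1) of each member against that of Cd8a in the 18 samples, with color for the group and circles or triangles for library set 1 or 2. The Ccl5 values of 7 samples form an upper cluster, and Ccl4 shows no clear rise with Cd8a (r = 0.15 over the plotted values). Over deviations from group means r was -0.49 for Ccl4, against 0.65 for Ccl5.

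Among the 8540 genes that averaged 100 or more normalized counts, those whose pattern over the 18 samples was most like that of Ccl5 were Cd8b1 (r = 0.91), S100a6, a calcium-binding protein (0.87), Gimap4, a lymphocyte GTPase (0.86), Ikzf3, the transcription factor Aiolos (0.85), and Nkg7, a protein of cytotoxic granules (0.84). Cd8a ranked 15 in that order (0.79). For Ccl4 the first 5 were Spn, the T cell sialoprotein CD43 (0.79), Prr13, Insl6, Prdm1, the transcription factor Blimp-1 (0.75), and Ncapd2, a condensin subunit. For Ccl3 they were the kinase gene Map4k4 (0.81), Ak3, an adenylate kinase of mitochondria, Smap2, Morc2a and Zyx, the adhesion protein zyxin (0.75). The members were not each other's closest matches: r was 0.65 between Ccl3 and Ccl5, 0.38 between Ccl4 and Ccl5 and 0.25 between Ccl3 and Ccl4. Over deviations from the group means the same pairs had 0.65, -0.47 and -0.29, so both pairs with Ccl4 changed sign. All these correlations share libraries and are descriptions without a test. Those over the values themselves also hold the group differences and, for Ccl5, the gap between its high and its low samples.

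Genes for other chemokines and for partner molecules of the members were described from fixed lists. Of 16 other CC chemokines 11 were tested, and in Nr2f6-/- anti-PD-L1 against wild type IgG2b samples none was called higher and 4 were called lower, with a list median of -4.20 against -0.12 for all genes. These were the monocyte attractants Ccl2 (-5.29, adjusted p = 0.00920) and Ccl12 (-7.59, adjusted p = 0.0154), the eosinophil attractant Ccl24 (-5.45, adjusted p = 0.0343) and the myeloid chemokine Ccl6 (-4.20, adjusted p = 2.43e-05, limma throughout). The 3 members therefore went the opposite way to the called chemokines of their family. None of the 14 macrophage markers had a difference above 0 in this comparison, and the list median was -3.64. Of these, 5 were called lower, among them Lyz2 (-3.61, adjusted p = 3.75e-06, limma), against 0.617% of all genes called in either direction. Both lists were also lower with anti-PD-L1 than with IgG2b in each genotype. For the CC chemokines the median was -2.47 in wild type (2 called lower) and -3.14 in Nr2f6-/- samples (3 called lower). For the macrophage markers it was -3.26 (1 called lower) and -3.68 (2 called lower). All genes gave 0.242% and 0.325% calls there. Between genotypes neither list gave a call under either antibody. The part of macrophage content in the levels of the members was not tested.

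Of 12 effector genes of cytotoxic lymphocytes, Nkg7 was called higher in Nr2f6-/- anti-PD-L1 than in wild type IgG2b samples (1.10, adjusted p = 0.00920, limma), and the list median was 0.57. Among all genes 0.617% were called in that comparison. The values of Gzma, a granule protease (1.62, adjusted p = 0.0778, limma), and Ifng, the gene of interferon gamma (0.91, adjusted p = 0.0927, limma), did not pass. With anti-PD-L1, where Ccl5 was called between genotypes, none of the 12 was called, against 0.175% of all genes. The list median was 0.46, against 0.00 for all genes. Gzmb, granzyme B, had 0.65 there (adjusted p = 0.225, limma). Xcl1, Cxcl9, Cxcl10 and Cxcl16, other chemokines that lymphocytes make or follow, gave no call in any comparison, where at most 0.617% of all genes were called. Of 18 transcription factors, none was called in the 3 comparisons in which Ccl5 was called. Among all genes 0.175%, 0.325% and 0.617% were called there. At such shares few calls can fall in lists of this size, so their absence is not a result about these genes. Klf13, mentioned above as a factor of Ccl5, had 0.55 between genotypes with anti-PD-L1 (adjusted p = 0.315, limma) and 0.18 for both conditions against neither (adjusted p = 0.917, limma). With anti-PD-L1 its lowest Nr2f6-/- sample, at 2342 normalized counts, lay just above its highest wild type sample, at 2310. Among all genes 0.392% showed that separation. The part of Klf13 in the Ccl5 difference was not tested. Srgn, the granule proteoglycan serglycin that binds chemokines (0.92, adjusted p = 0.0366), Junb (1.94, adjusted p = 0.0170) and Bhlhe40 (1.28, adjusted p = 0.0410, limma throughout) were higher in Nr2f6-/- IgG2b than in wild type anti-PD-L1 samples. They were 1 of the 12 effector genes and 2 of the 18 factors, against 0.459% of all genes called there.

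The members share their stretch of chromosome 11 with other genes. Between Ccl5 and Ccl3, which start 118.8 kb apart, lie Ccl9, a myeloid CC chemokine, and Ccl6, both tested, beside E230016K23Rik and Rpl9-ps1. For Nr2f6-/- anti-PD-L1 against wild type IgG2b, Ccl6 fell by 4.20 on the log2 scale and Ccl9 had -0.84 (adjusted p = 0.549, limma), while Ccl5, Ccl3 and Ccl4 were higher by 1.69, 1.21 and 1.52. Beyond them, the nearest tested genes on the outer sides were Taf15, an RNA-binding protein, with -0.56 (adjusted p = 0.895, limma), and Wfdc17 with -4.17 (adjusted p = 0.118, limma). With anti-PD-L1 the genotype difference of Ccl5 (1.51) stood beside 0.76 for Ccl9 (adjusted p = 0.447, limma) and -0.79 for Ccl6 (adjusted p = 0.553, limma).

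**Figure D5:**
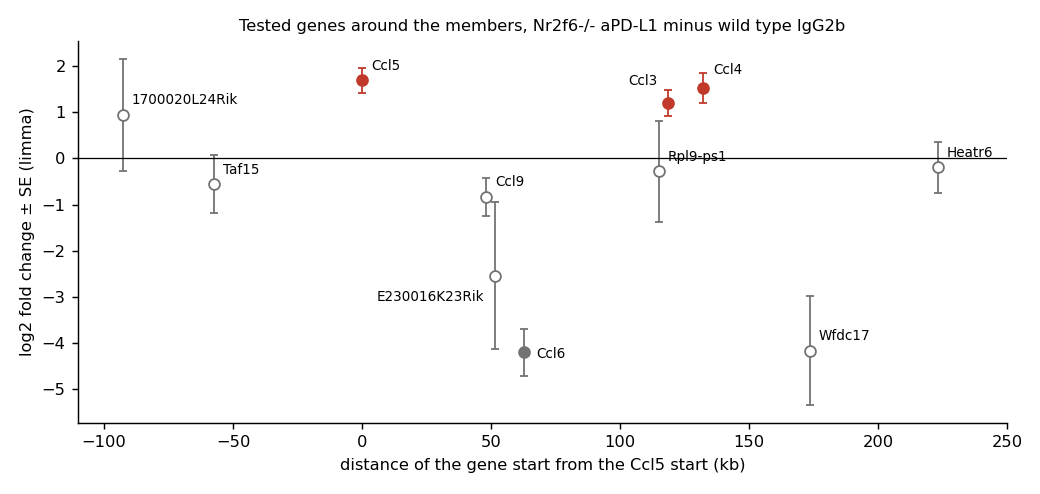
Log2 fold change ± SE (limma) of the tested genes around the members for Nr2f6-/- anti-PD-L1 minus wild type IgG2b, by the distance of each gene start from the Ccl5 start in kb, with members in red and filled points for an adjusted p under 0.05. Ccl5, Ccl3 and Ccl4 lay at 1.69, 1.21 and 1.52, with Ccl6 between Ccl5 and Ccl3 at -4.20.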

How the data were processed

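The sources used here name cutadapt, Trimmomatic, STAR, Bowtie2, HTSeq and DESeq2 and the build mm10 in the submitters' processing notes, without versions. The library kit was QuantSeq 3′, and replicates were not pooled. Each deposited value is a signal, the normalized count of a gene, made by dividing its reads by the size factor of the library. In each column 100% of the values were whole multiples of 1 step (tolerance 0.01 reads), which gave back the reads, with size factors from 0.823 to 1.22. A floor of 3 reads corresponds to at most 3.64 normalized counts and covers counting error only. Reads without molecular identifiers are not independent molecules.

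Because the deposited values are not counts, limma (3.58.1, R 4.3.3, eBayes with trend) was run on log2(normalized count + 1) in 1 model of the 4 group means, for genes with a mean of at least 10. Fold changes are on that scale. Tests were two-sided, with Benjamini-Hochberg adjustment over all genes and a threshold of 0.05. Single values were also tested by exact permutation over samples, and correlations by 100000 permutations within groups, or by all pairings where n was under 10. The count test on recovered reads (edgeR 4.0.16, DESeq2 1.42.0) was an alternative, which for Nr2f6-/- against wild type samples with anti-PD-L1 called 22 and 184 genes, where limma called 21. Ratios to Cd8a were refitted for all genes. The procedure was tested on simulated data. Named genes were the members, Nr2f6, Cd8a, Cd8b1, Cd4, Cd3e, the called genes and up to 4 others of fixed lists, and per member the 5 most correlated genes. Members and lists were chosen with earlier results of these data known. Sequences were taken from GENCODE M21. Some items of the fixed lists and sequences are not reported here.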

Additional observations from a re-analysis of the deposited data

Results flagged for a closer look

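In wild type anti-PD-L1 replicate 3, Ccl5 had 111441 normalized counts and the nearest other sample of the group had 45817, a gap of 0.763 of the group's range, above the 95% critical value of Dixon's test for 6 samples. The same sample had the highest Ccl3 of its group, 13025 normalized counts, with 7321 in the nearest sample (gap 0.714). Its summed CD8 markers (34822 normalized counts) were also the highest of its group, and its Ccl4 (5061) was not. In Nr2f6-/- anti-PD-L1 replicate 6, Ccl3 had 5608 normalized counts and the nearest sample had 10525 (gap 0.669), while its Ccl4 was 14012. These were 3 of 14 groups of values examined, and chance marks about 1 in 20 groups.

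The genotype effect on Ccl5 with anti-PD-L1 exceeded that with IgG2b by 1.29 on the log2 scale, a difference that did not pass across all genes (adjusted p = 0.959, limma). The exact permutation p of 0.025 assumes no genotype effect under either antibody, so it is not a test of this difference alone.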

How the results depend on the processing

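Of 1109 alternative values, 1013 kept their direction and their side of the 0.05 threshold, 33 no longer passed it, 9 newly passed it and 54 changed sign. For the correlations with Cd8a this side was taken from the unadjusted permutation p. None of the 6 relations passed after adjustment, so changes among the correlations were not calls lost or gained. With Cd8a as a covariate the calls were lost for Ccl5 between genotypes with anti-PD-L1 (1.02) and for Ccl5 and Ccl3 in both conditions against neither (1.08 and 0.84), and small differences changed sign for Ccl5 between genotypes under IgG2b (-0.0664), Ccl3 with anti-PD-L1 in Nr2f6-/- samples (-0.18) and Ccl5 between Nr2f6-/- IgG2b and wild type anti-PD-L1 (-0.13). That last Ccl5 value also changed sign with library set as a covariate (-0.14), in edgeR (-0.10), in DESeq2 (-0.0882) and in set 1 alone (-0.28), and so did Ccl4 there (0.14 in set 1). Within set 1 the Ccl5 values of 1.23 between genotypes and 1.51 for anti-PD-L1 in Nr2f6-/- samples, and the values of both conditions against neither for Ccl3 (1.43) and Ccl4 (1.34), were not called, nor was Ccl5 between genotypes in set 2 (1.80). Fewer samples were tested there. Without a filter on low values, calls were lost for Ccl5 with anti-PD-L1 in Nr2f6-/- samples (1.46), Ccl3 (1.21) and Ccl4 (1.52), with more genes tested. In a fit of the compared groups only, Ccl3 (1.21) and Ccl4 (1.52) were lost. For Ccl3 the call was also lost under quantile normalization (1.14), equal totals (1.13) and edgeR (1.18), and for Ccl4 with library set as a covariate (1.18); the cause was not tested. Ccl5 with anti-PD-L1 in wild type samples was -0.0692 under quantile normalization, and Ccl3 in Nr2f6-/- samples -0.0289 at equal totals.

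The replicate block took the Ccl4 call of both conditions against neither (1.18, adjusted p = 0.0602, limma) and turned Ccl5 between Nr2f6-/- IgG2b and wild type anti-PD-L1 to -0.14. Same-numbered samples did not deviate together (r from -0.03 to 0.04 in 21 pairs, 0 above 0.1), and other pairs had r from -0.05 to 0.06. No pairing by number was seen, although this measure cannot exclude one.

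Relative to Cd8b1 the genotype differences with anti-PD-L1 were -0.12 for Ccl3, -0.0508 for Ccl4 and 0.84 for Ccl5, which then passed, and 0.0373 for Ccl5 under IgG2b. Relative to the CD3 genes, Ccl5 passed with 1.32 between genotypes, 1.21 for anti-PD-L1 in Nr2f6-/- samples and 1.11 for both conditions against neither, and was -0.20 for anti-PD-L1 in wild type samples and 0.11 for Nr2f6-/- IgG2b against wild type anti-PD-L1. A pseudocount of 10 gave 0.97 for Ccl5 between genotypes, past the threshold. Library set 2, added after the data were seen, gave ratios of -0.28 for Ccl3 and -0.47 for Ccl4, and set 1 gave 0.19 for Ccl4 between Nr2f6-/- IgG2b and wild type anti-PD-L1. The correlation with Cd8a was 0.60 (raw values) and 0.58 (Cd8b1) for Ccl3, 0.15 (raw) and -0.58 (Cd8b1) for Ccl4, and 0.52 in set 1, 0.75 in set 2, 0.45 without 2 samples and 0.84 with Cd8b1 for Ccl5; without wild type anti-PD-L1 replicate 3, 0.46.

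Leaving out each library in turn gave ranges of -0.084 to 0.34 for Ccl5 and -0.22 to 0.17 for Ccl3 with anti-PD-L1 in wild type and in Nr2f6-/- samples, 1.28 to 1.62 for Ccl5 in Nr2f6-/- samples, 0.86 to 1.5 for Ccl3 and 1.21 to 1.80 for Ccl4 in both conditions against neither, -0.12 to 0.31 for Ccl5 between Nr2f6-/- IgG2b and wild type anti-PD-L1, and -0.20 to 0.39 for the Ccl4 interaction. For the ratios to Cd8a they were -0.11 to 0.14 (Ccl3), -0.15 to 0.32 (Ccl4) and 0.87 to 1.11 (Ccl5) between genotypes with anti-PD-L1, -0.11 to 0.51 (Ccl4) and -0.29 to 0.24 (Ccl5) under IgG2b, -0.092 to 0.20 for Ccl5 with anti-PD-L1 in wild type samples and -0.34 to 0.20 for Ccl5 between Nr2f6-/- IgG2b and wild type anti-PD-L1.

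Counts of called genes were 21, 39, 74 and 55 in limma and 184, 230, 177 and 281 in DESeq2 for genotype with anti-PD-L1, anti-PD-L1 in Nr2f6-/- samples, both conditions against neither, and Nr2f6-/- IgG2b against wild type anti-PD-L1. For anti-PD-L1 in wild type samples they were 29 and 94, with 60 at a pseudocount of 10, 19 at a mean of at least 50 or in edgeR, 15 in the groups compared only and 12 with library set as a covariate or with the replicate block. For genotype with anti-PD-L1 other counts were 9 without a filter, 4 in the groups compared only, 12 with Cd8a as a covariate, 34 in set 1 and 0 in set 2 (limma). For anti-PD-L1 in Nr2f6-/- samples they were 17 without a filter, 19 in the groups compared only or with Cd8a as a covariate and 8 in set 1. For both conditions against neither they were 116 at a pseudocount of 10, 14 with Cd8a as a covariate and 41 in edgeR. For Nr2f6-/- IgG2b against wild type anti-PD-L1 they were 28 without a filter, 22 in the groups compared only, 25 with library set as a covariate, 16 with the replicate block and 36 in set 1. Under IgG2b, limma called 1 gene at a pseudocount of 10 and 14 without a filter, and for the interaction 5 without a filter.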
